A study of Homo sapiens with 6 samples.

Results

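The antiviral effector genes induced by interferon were followed in the breast carcinoma line HDQ-P1 with and without the small molecule Y-320. The set holds 45 genes named by symbol: the OAS, IFIT, IFI, IFITM and PARP groups, the ISG15 conjugation machinery, the MX GTPases and other effectors. Each symbol was matched to its Ensembl identifier, and all 45 had a row among the 40295 genes of the table. Of these, 44 passed the filter on low counts and stood among the 16580 genes tested, and IFI27 did not pass. All 44 had at least 10 counts in every library, so none of them entered through 1 group alone.

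Total RNA was sequenced from 6 samples, 3 of untreated HDQ-P1 cells and 3 of HDQ-P1 cells exposed over 48 h to Y-320 at 1 µM. Both groups were the same line, grown in the same serum-supplemented medium. No interferon, virus or aminoglycoside is named for either group, and no source says whether the untreated cells were given a solvent. Y-320 is a phenylpyrazoleanilide studied for its ability to increase readthrough of premature stop codons by aminoglycosides, and the comparison asks what the compound does alone to the transcriptome. The sources used here do not say that the 3 samples of a group came from separate cultures, and p-values then measure only the spread between these samples, which may be technical. The 6 libraries summed to between 21045401 and 22740535 estimated counts, and 3 counts, taken as the floor of detection, correspond to 0.131 to 0.144 CPM. Values below are normalized CPM, that is counts-per-million after scaling of the libraries, and each log2 fold change is Y-320 against untreated with its standard error (SE).

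Interferons bind receptors on the cell surface, and the kinases attached to these receptors phosphorylate transcription factors of the STAT family. With IRF9 these proteins form a complex that binds the interferon-stimulated response element (ISRE) in the promoters of many genes. Many products of these genes act on viruses directly: they cut or trap viral RNA, block entry at membranes, or tag newly made proteins. In many cultured tumour lines a part of this program is transcribed at a low level without added interferon.

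Promoter sequences from RefSeq on GRCh38.p14, each running from 250 bases before to 50 bases after a start site, were matched for 38 of the 45 genes. IFIT2, OASL, OAS2, IFITM2, USP18, TRIM22 and MX2 were not matched. The core of the ISRE was searched as GAAANNGAAA, or TTTCNNTTTC on the other strand, and was present in 29 of the 38 genes (76.3%), against 4.38% of all 27305 genes with such a window. By single promoters it was present in 34 of 52 (65.4%), against 3.57% of all 35116. The stretches below come from 5 genes that were lower with Y-320, from IFIT5, whose lower call depended on single libraries, and from ISG20 and LGALS3BP, of which the first was higher and the second did not pass the test. Each stretch is read 5′ to 3′ along the gene, positions count from the start site, and capitals mark the letters of each ISRE core, on either strand, that lies whole within the stretch. Overlapping matches appear as 1 longer run of capitals.

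IFIT1 (chr10:89392495-89392541, plus strand, bases -128 to -82): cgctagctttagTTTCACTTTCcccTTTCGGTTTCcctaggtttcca
IFIT3 (chr10:89327829-89327896, plus strand, bases -168 to -101): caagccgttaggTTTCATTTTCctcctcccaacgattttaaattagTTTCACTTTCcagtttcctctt
ISG15 (chr1:1013372-1013411, plus strand, bases -125 to -86): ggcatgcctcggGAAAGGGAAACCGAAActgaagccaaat
BST2 (chr19:17405733-17405772, minus strand, bases -142 to -103): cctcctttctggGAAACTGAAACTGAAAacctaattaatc
HERC5 (chr4:88456982-88457066, plus strand, bases -137 to -53): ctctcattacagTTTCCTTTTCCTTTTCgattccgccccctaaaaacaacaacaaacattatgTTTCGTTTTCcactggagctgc
IFIT5 (chr10:89414511-89414567, plus strand, bases -57 to -1): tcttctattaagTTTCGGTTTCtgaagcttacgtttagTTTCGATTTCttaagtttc
ISG20 (chr15:88638935-88638968, plus strand, bases -81 to -48): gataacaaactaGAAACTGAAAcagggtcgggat
LGALS3BP (chr17:78979960-78979993, minus strand, bases -70 to -37): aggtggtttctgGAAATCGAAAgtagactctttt

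The stretches show that the core was present on both sides of the call: ISG15 and BST2 carry overlapping matches and were lower, ISG20 carries a single match and was higher, and LGALS3BP carries a single match and did not pass the test. A further match in IFIT5 begins with the last 4 letters of the printed stretch, left in lower case, and runs on past the start site. Among the tested genes with the core, 23 of 28 were lower and 1 was higher, with a median log2 fold change of -0.77. Among the 9 tested genes whose window lacks these letters (CMPK2, HERC6, IFI16, IFI35, OAS1, SAMD9L, SP110, UBE2L6 and XAF1), 8 were lower and 0 were higher, with a median of -0.67. Of the other tested genes that hold the core in a promoter, 126 of 418 (30.1%) were lower and 91 (21.8%) were higher, and of those without it 27.6% were lower and 28.2% were higher. A second motif, the gamma-activated site TTCNNNGAA, which reads the same on both strands, was present in 11 of the 38 matched genes (28.9%) and in 9.38% of all genes. In 6 promoters of the set it overlapped a match of the ISRE core. A match is a description of letters and no evidence of binding.

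Of the 44 genes tested, 36 (81.8%) were lower with Y-320 and 3 (6.82%) were higher by edgeR's quasi-likelihood test at an adjusted p under 0.05. Over all 16580 genes tested, 25.4% were lower and 26.2% were higher. The set was chosen with earlier results of these data known. The shares given for it here and elsewhere therefore describe the set and are no independent test of it. The median log2 fold change of the 44 genes was -0.73, while the median of all genes tested was 0.00097, and 5.07% of all genes had a lower value than the median of the set. Summed over the 45 genes, the level went from 2628 ± 67.5 normalized CPM without Y-320 to 1906 ± 24.1 with it (SD, n = 3 per group). Bulk RNA was measured, so fewer expressing cells and less RNA per cell cannot be told apart. Normalized CPM is also a share of each library, so a lower value need not mean less of that RNA per cell. The amount of RNA per cell was not measured here.

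The groups of libraries did not overlap for most of the set. In 36 genes (81.8%) all Y-320 libraries lay below all untreated libraries, against 29.4% of all genes tested. In 4 genes (9.09%) all Y-320 libraries lay above, against 29.8% of all genes tested. A fall to no more than 50% of the untreated level, a log2 fold change of -1 or less, was found in 9 genes (20.5%), against 2.59% of all genes tested. These 9 were OAS2, IFIT1, OASL, EPSTI1, BST2, IFIT3, IFI44L, DDX60 and IFI44. In the 6 fits that each left out 1 library, 35 of the 36 lower calls were made every time, and IFIT5 was the exception.

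**Figure D1:**
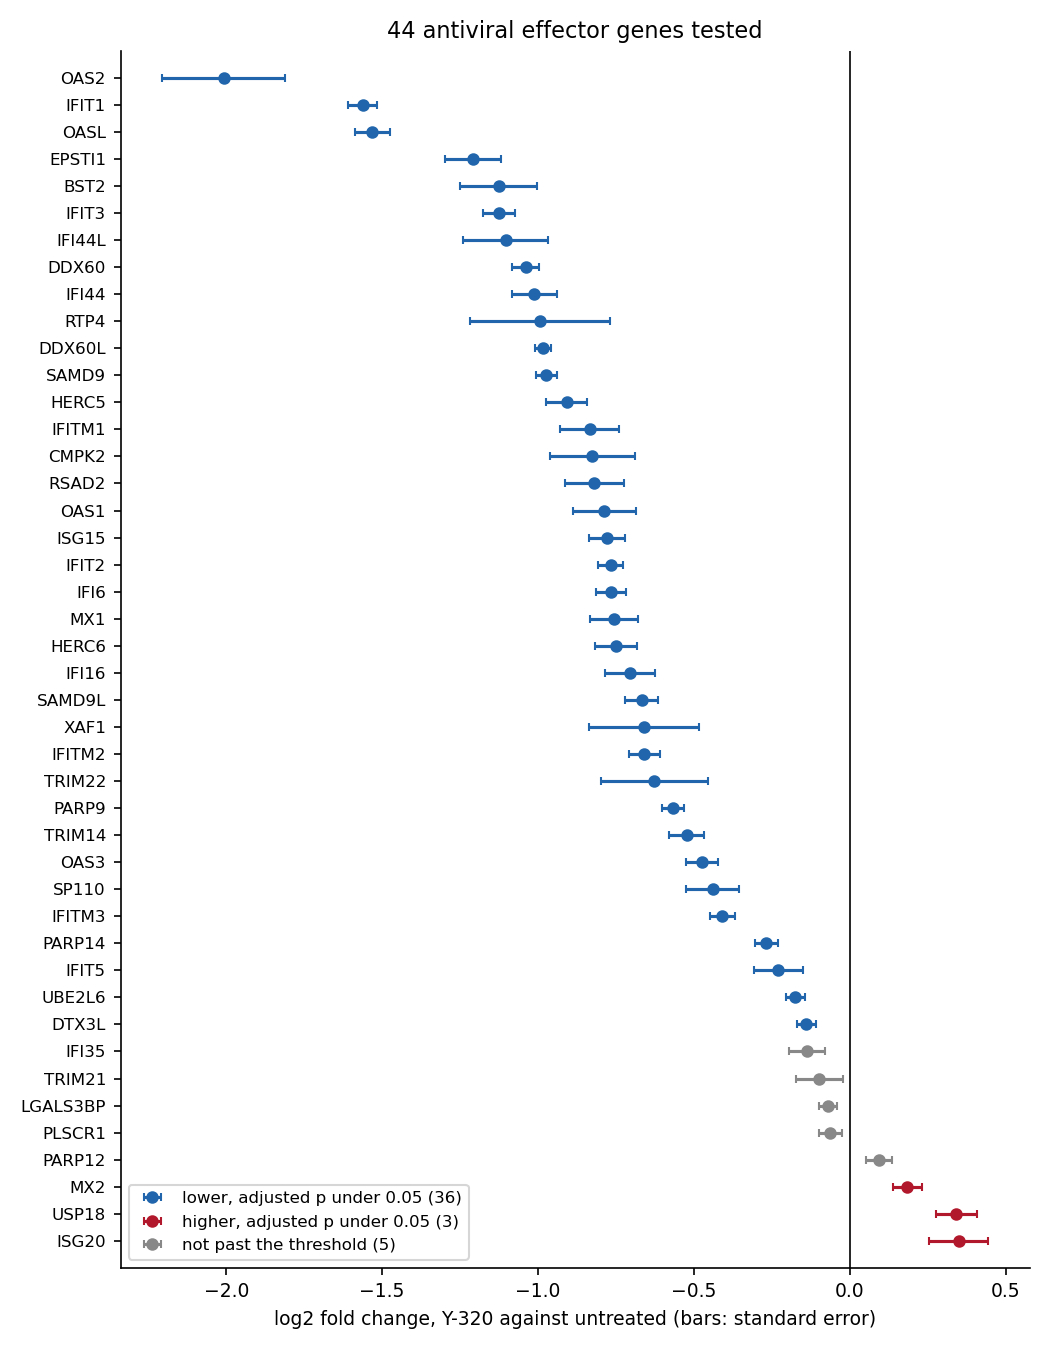
Log2 fold change of each of the 44 antiviral effector genes tested, Y-320 against untreated, with bars for the standard error and colours for the call of edgeR at an adjusted p under 0.05. The values run from -2.01 for OAS2 to 0.35 for ISG20, with 36 genes called lower, 3 called higher and 5 not past the threshold.

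**Figure D2:**
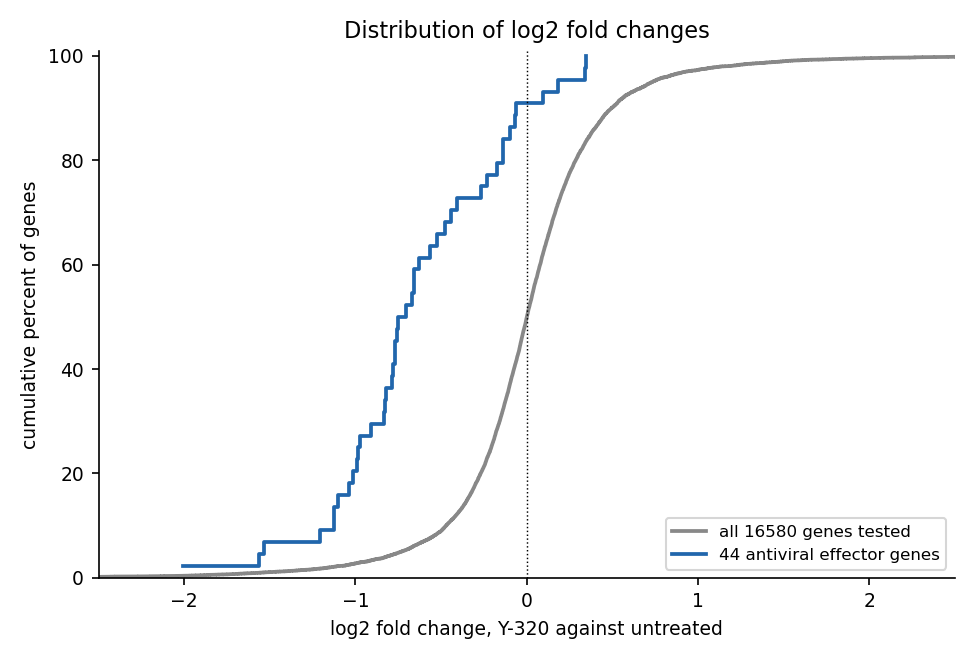
Cumulative percent of genes (vertical axis) at or below each log2 fold change (horizontal axis) for all 16580 genes tested and for the 44 antiviral effector genes. The curve of the effector genes lies to the left, with a median of -0.73 against 0.00097 for all genes.

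All 4 members of the OAS family were lower with Y-320. The OAS enzymes sense double-stranded RNA and make oligoadenylates that activate the nuclease RNase L, and OASL is a relative that lacks this activity and acts with the RNA sensor RIG-I. OAS1, OAS3 and OAS2 lie in that order on chromosome 12 (chr12:112905856-112933219, chr12:112938051-112976460 and chr12:112978395-113011723 on hg38), and OASL lies farther along the same chromosome (chr12:121017763-121039246). OAS2 measured 4.03, 5.04 and 3.99 normalized CPM in the 3 untreated libraries and 1.14, 0.824 and 1.26 in the 3 Y-320 libraries. Its level with Y-320 was 24.9% of the untreated level, the largest relative fall of the 44 genes (log2 fold change -2.01, SE 0.20, adjusted p = 1.28e-05). OASL measured 49.6, 50.5 and 53.5 in untreated libraries and 16.6, 17.3 and 19.3 with Y-320 (log2 fold change -1.53, SE 0.057, adjusted p = 1.18e-08). OASL thus kept 34.6% of its untreated level, and the groups lay far apart. OAS1 gave 13.6, 15.4 and 13.5 against 8.71, 6.96 and 8.89 (log2 fold change -0.79, SE 0.10, adjusted p = 8.70e-05). For OAS3, the longest OAS protein, the libraries held 48.7, 48.6 and 46.3 and, with Y-320, 31.7, 35.7 and 35.9 (log2 fold change -0.47, SE 0.051, adjusted p = 2.49e-05). OAS3 fell least in the family, so the ratio of OAS3 to OAS2 counts was 12.1, 9.66 and 11.6 in the untreated libraries and 27.9, 43.3 and 28.4 in the Y-320 libraries.

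The IFIT genes lie next to each other on chromosome 10, in the order IFIT2 (chr10:89283694-89309271), IFIT3 (chr10:89327307-89377473), IFIT1 (chr10:89392546-89406487) and IFIT5 (chr10:89414568-89421605). Their products bind RNA with foreign or incompletely capped ends and hold it back from translation. All 4 were lower, with log2 fold changes that spread from -1.56 to -0.23. IFIT1 fell from 40.0, 42.3 and 40.5 to 14.2, 13.8 and 13.5 normalized CPM (log2 fold change -1.56, SE 0.047, adjusted p = 2.96e-09). IFIT3, which stabilizes IFIT1 in a shared complex, fell from 74.3, 80.4 and 75.4 to 34.97, 32.9 and 37.5 (log2 fold change -1.13, SE 0.050, adjusted p = 4.17e-08). These were the strongest falls of the cluster, to 33.9% and 45.8% of the untreated level. IFIT2, which binds AU-rich RNA, measured 119.9, 122 and 120.2 in untreated libraries and 66.4, 73.6 and 72.97 with Y-320 (log2 fold change -0.77, SE 0.039, adjusted p = 1.01e-07). IFIT5 measured 14.3, 15.1 and 16.04 and, with Y-320, 13, 14.01 and 11.7 (log2 fold change -0.23, SE 0.079, adjusted p = 0.0331). The groups of IFIT5 lay close together, and its call was lost without Y-320 replicate 1 (adjusted p = 0.0652), Y-320 replicate 3 (adjusted p = 0.122), untreated replicate 2 (adjusted p = 0.0711) or untreated replicate 3 (adjusted p = 0.114), where its log2 fold change ranged from -0.23 to -0.16. DESeq2 gave IFIT5 an adjusted p of 0.122 (range over the alternatives 0.0202 to 0.122). The ratio of IFIT5 to IFIT1 counts, the neighbours at one end of the cluster, went from 0.369 ± 0.0227 without Y-320 to 0.930 ± 0.0763 with it (SD, n = 3 per group).

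Of the 6 genes named IFI, which share a naming history and not a protein family, 4 were lower, IFI35 did not pass the test and IFI27 was not tested. IFI6, a mitochondrial and endoplasmic reticulum protein that limits flavivirus replication, fell from 37.5, 38.9 and 39.4 to 21.3, 23.1 and 23.7 normalized CPM (log2 fold change -0.77, SE 0.049, adjusted p = 5.03e-07). The neighbours IFI44L (chr1:78619902-78646145) and IFI44 (chr1:78649796-78664078) fell by similar factors. IFI44 went from 25.5, 25.4 and 26.1 to 11.3, 14.1 and 12.9 (log2 fold change -1.01, SE 0.072, adjusted p = 1.17e-06). IFI44L went from 5.07, 5.23 and 5.26 to 2.23, 2.20 and 2.80 (log2 fold change -1.10, SE 0.14, adjusted p = 6.57e-05). Both were near 50% of their untreated levels, with 49.6% for IFI44 and 46.5% for IFI44L. IFI16, a sensor of DNA in the nucleus and cytosol, measured 14.6, 14.96 and 14.2 in untreated libraries and 8.01, 9.57 and 9.30 with Y-320 (log2 fold change -0.71, SE 0.079, adjusted p = 3.40e-05). IFI35 overlapped between the groups, at 21.2, 21.7 and 19.98 without Y-320 and 18.1, 20.1 and 18.9 with it (log2 fold change -0.14, SE 0.058, adjusted p = 0.0744). Without Y-320 replicate 2 it was called lower (log2 fold change -0.18, adjusted p = 0.0461, range over the alternatives 0.0351 to 0.289), as it was with upper-quartile factors (adjusted p = 0.0351). IFI27, a mitochondrial protein that is among the most strongly induced genes in blood during viral infection, was covered by 7, 9 and 13 counts without Y-320 and by 7, 6 and 8 counts with it. These low counts overlapped, and in the fit with no filter its log2 fold change was -0.49 (SE 0.44, adjusted p = 0.493), so that a change was not detectable at this depth.

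The 3 IFITM genes encode small membrane proteins that block the fusion of viral and cellular membranes, and they lie within a short stretch of chromosome 11 (IFITM2 at chr11:303655-309397, IFITM1 at chr11:310041-315272 and IFITM3 at chr11:319676-329475). All were lower with Y-320. IFITM3 measured 163, 179 and 180.1 normalized CPM in untreated libraries and 133, 128 and 133 with Y-320 (log2 fold change -0.41, SE 0.039, adjusted p = 1.05e-05). IFITM2 measured 59.7, 67.9 and 66.5 without Y-320 and 41.4, 40.96 and 40.4 with it (log2 fold change -0.66, SE 0.049, adjusted p = 1.62e-06). IFITM1 measured 16.9, 20.5 and 16.9 without Y-320 and 11.03, 10.1 and 9.30 with it (log2 fold change -0.83, SE 0.095, adjusted p = 3.62e-05). The groups did not overlap for any of them. Their sequences are close, and 44.5%, 30.1% and 41.8% of the 31-base words of IFITM1, IFITM2 and IFITM3 also occur in other genes, so the split of reads among them is uncertain. Summed into a single value, they had a log2 fold change of -0.50 (SE 0.040, adjusted p = 2.68e-06).

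The PARP group had the median log2 fold change closest to 0 of the 5 groups described so far, at -0.20, with 3 of 4 genes lower. PARP9 and PARP14 belong to the macrodomain PARPs, and DTX3L is the ubiquitin ligase that forms a complex with PARP9. Their genes lie together on chromosome 3 (PARP9 at chr3:122527924-122564577, DTX3L at chr3:122564338-122575203 and PARP14 at chr3:122680839-122730840), and PARP12, which binds RNA through zinc fingers, lies on chromosome 7 (chr7:140023749-140062951). PARP9 fell from 46.7, 46.4 and 46.5 to 31.7, 31.2 and 31.3 normalized CPM (log2 fold change -0.57, SE 0.035, adjusted p = 3.73e-07). DTX3L, which starts head to head with PARP9 on the opposite strand, changed less, from 66.6, 67.9 and 67.8 to 60.9, 60.6 and 62.2 (log2 fold change -0.14, SE 0.030, adjusted p = 0.00305). PARP14 went from 93.6, 92.3 and 94.6 to 75.6, 75.6 and 81.9 (log2 fold change -0.27, SE 0.037, adjusted p = 1.36e-04). The libraries of all 3 were tightly grouped, and differences of this size exceeded the spread. PARP12 stood apart, with 37.8, 41.6 and 40.3 in untreated libraries and 42.9, 42.2 and 42.4 in Y-320 libraries. All of its Y-320 libraries lay above the untreated ones, yet the difference did not pass the test (log2 fold change 0.09, SE 0.042, adjusted p = 0.0911). The annotated ends of PARP9 and DTX3L overlap, and whether the counting used strand is not given in the sources used here.

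**Figure D3:**
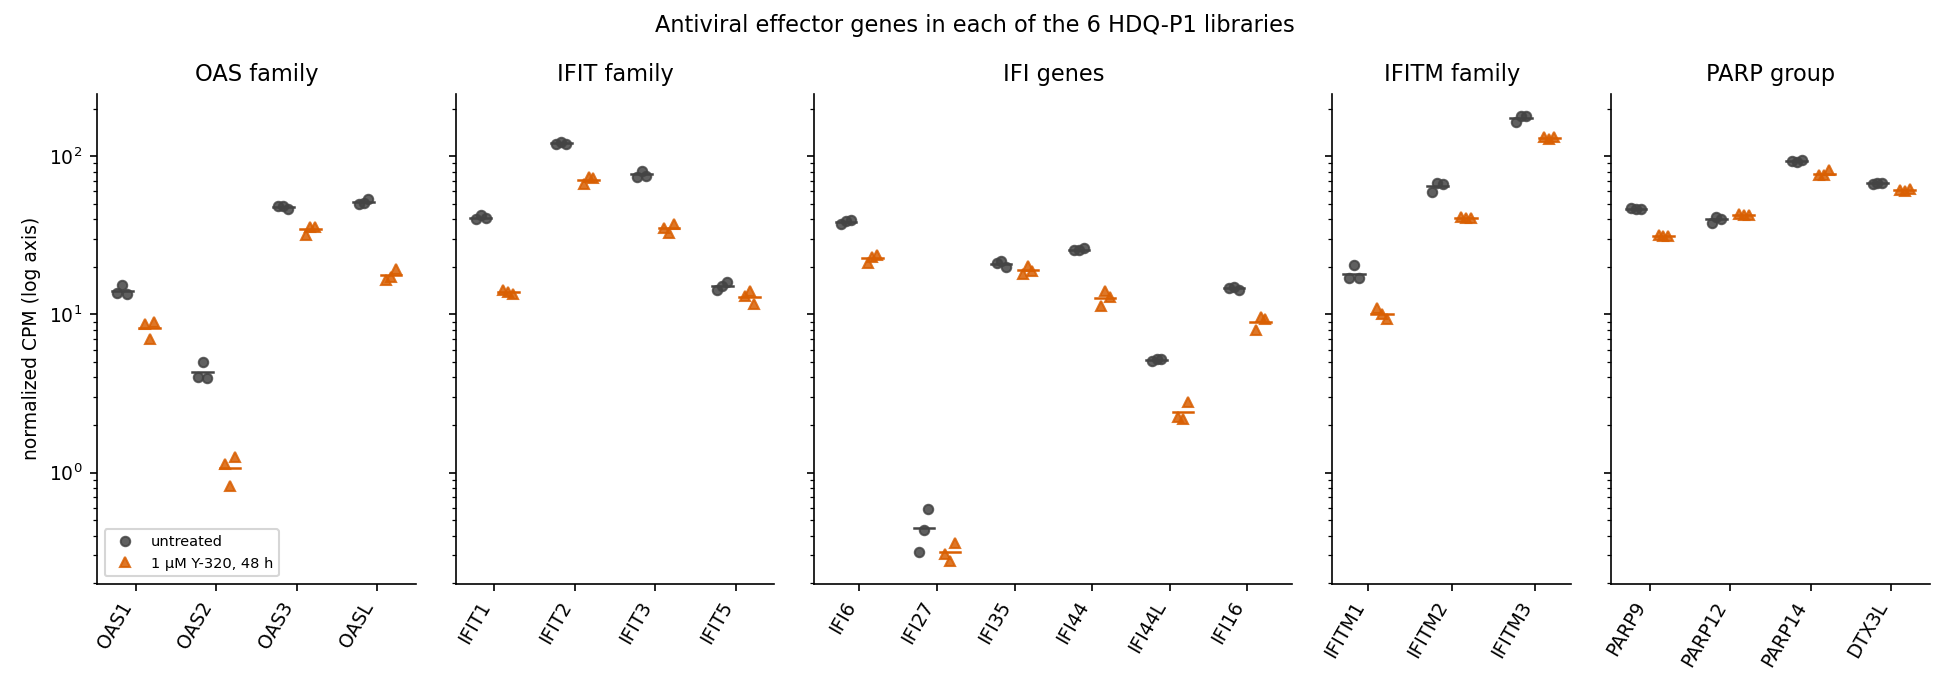
Normalized CPM (vertical log axis) of the OAS, IFIT, IFI, IFITM and PARP genes in each of the 3 untreated libraries (circles) and 3 Y-320 libraries (triangles), with short lines for the group means. The triangles lie below the circles except in IFI35 and IFI27, where the groups overlap, and in PARP12, where the 3 Y-320 libraries (42.9, 42.2 and 42.4) lie above the untreated ones.

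In the group of ISG15, a ubiquitin-like protein, the genes ISG15, HERC5, HERC6 and UBE2L6 were lower and the protease USP18 was higher. ISG15 itself measured 25.96, 28.3 and 26.4 normalized CPM in untreated libraries and 14.8, 16.2 and 16.02 with Y-320 (log2 fold change -0.78, SE 0.058, adjusted p = 1.53e-06). HERC5, the main ligase for ISG15 in human cells, fell to 53.3% of its untreated level (log2 fold change -0.91, SE 0.067, adjusted p = 1.44e-06). HERC6, its neighbour on chromosome 4, had a log2 fold change of -0.75, and UBE2L6, the conjugating enzyme, one of -0.17 (SE 0.068 and 0.031, both lower). USP18 (chr22:18150118-18177397) removes ISG15 from its targets and also sits at the interferon receptor, where it damps signalling. It measured 10.7, 11.4 and 10.6 in untreated libraries and 13.2, 14.1 and 13.99 with Y-320, and every Y-320 library was above every untreated one (log2 fold change 0.34, SE 0.067, adjusted p = 0.00159). Of its 31-base words 28.97% are shared, mostly with the copy USP41, which had 10.5, 7.42 and 9.81 estimated counts in untreated libraries and 1.89, 11.5 and 16.7 with Y-320. With both rows summed, USP18 remained higher (log2 fold change 0.33, SE 0.070, adjusted p = 0.00249). The ratio of USP18 to ISG15 counts was 0.412, 0.401 and 0.400 in the untreated libraries and 0.891, 0.873 and 0.873 in the Y-320 libraries.

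The MX pair, dynamin-like GTPases that trap viral nucleocapsids, moved in opposite directions although the genes are neighbours on chromosome 21 (MX2 at chr21:41361999-41409393 and MX1 at chr21:41420020-41470071). MX1, active against influenza virus among others, fell from 44.7, 53.7 and 49.3 to 27.7, 27.2 and 32.4 normalized CPM (log2 fold change -0.76, SE 0.078, adjusted p = 1.75e-05). MX2, which restricts HIV at the nuclear pore, rose from 38.96, 38.7 and 35.7 to 44.6, 41.4 and 42.9 (log2 fold change 0.18, SE 0.046, adjusted p = 0.00710). The groups did not overlap for either gene. The ratio of MX2 to MX1 counts went from 0.773 ± 0.0853 without Y-320 to 1.48 ± 0.145 with it (SD, n = 3 per group). This ratio and those of OAS3 to OAS2, IFIT5 to IFIT1 and USP18 to ISG15 were chosen after the values were seen and are given as a description.

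ISG20 (chr15:88635670-88656483), an exonuclease that degrades RNA, was the remaining gene with a higher level. It measured 6.43, 6.09 and 6.16 normalized CPM in untreated libraries and 7.18, 8.38 and 8.26 with Y-320 (log2 fold change 0.35, SE 0.095, adjusted p = 0.0109). DESeq2 did not call it (adjusted p = 0.0792, range over the alternatives 0.00521 to 0.0792). USP18, MX2 and ISG20 were each called higher in all 6 fits without a library, and their levels with Y-320 were 127%, 114% and 127% of the untreated level.

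Besides IFI35 and PARP12, 3 genes did not pass the test. LGALS3BP (chr17:78971238-78979947), a secreted glycoprotein, measured 636, 685 and 672 normalized CPM in untreated libraries and 636, 631 and 630.4 with Y-320 (log2 fold change -0.07, SE 0.028, adjusted p = 0.0563). Its groups overlapped through untreated replicate 1, and without that library it was called lower (log2 fold change -0.10, adjusted p = 0.00270, range over the alternatives 0.00270 to 0.198). It was also called lower by DESeq2 (adjusted p = 0.0327), with upper-quartile factors (0.0152) and among genes with at least 10 counts in every library (0.0476). PLSCR1 (chr3:146515180-146544856), a membrane protein that blocks entry of coronaviruses, measured 62.3, 64.7 and 62.7 without Y-320 and 57.7, 62.4 and 61.5 with it (log2 fold change -0.06, SE 0.038, adjusted p = 0.199). TRIM21 (chr11:4384897-4393702), a cytosolic receptor for antibody-coated virus, measured 11.6, 12.5 and 12.5 without Y-320 and 11.03, 12.3 and 10.8 with it (log2 fold change -0.10, SE 0.075, adjusted p = 0.305). The groups of both overlapped, and every alternative fit left both uncalled.

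The other effectors were lower. The DDX60 helicases, which assist RNA sensing, were lower by about the same factor: DDX60 went from 104 ± 4.18 to 50.8 ± 2.45 normalized CPM, and DDX60L from 208 ± 3.32 to 105 ± 1.79 (SD, n = 3 per group). Their log2 fold changes were -1.04 (SE 0.043, adjusted p = 2.47e-08) and -0.98 (SE 0.027, adjusted p = 2.04e-09). SAMD9 and SAMD9L, cytosolic restriction factors against poxviruses that lie side by side on chromosome 7, had log2 fold changes of -0.97 (SE 0.034) and -0.67 (SE 0.053). RSAD2, or viperin, makes a nucleotide that terminates viral RNA chains, and CMPK2, encoded beside it, supplies its substrate. Their log2 fold changes were -0.82 (SE 0.095) and -0.83 (SE 0.14), and the gene ends of this pair also overlap in the annotation. Of the TRIM genes, TRIM14, an adaptor of RNA sensing, had -0.52 (SE 0.055) on the log2 scale. TRIM22, a restriction factor against retroviruses, had -0.63 (SE 0.17, adjusted p = 0.0107) at 3.03 ± 0.206 normalized CPM in untreated cells (SD, n = 3), and DESeq2 did not call it (adjusted p = 0.0575, range over the alternatives 0.00566 to 0.0575).

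EPSTI1 fell to 43.3% of its untreated level (log2 fold change -1.21, SE 0.090, adjusted p = 1.55e-06). BST2, or tetherin, which holds budding virions at the cell surface, fell from 9.33, 11.7 and 12.5 to 4.73, 4.94 and 5.64 normalized CPM (log2 fold change -1.13, SE 0.12, adjusted p = 2.90e-05). RTP4, a regulator of RNA sensing, measured 1.81, 2.30 and 2.08 in untreated libraries and 0.788, 1.19 and 1.13 with Y-320 (log2 fold change -0.99, SE 0.23, adjusted p = 0.00388), which is low enough that its SE was the largest of the 44 genes. XAF1, a pro-apoptotic protein, and SP110, a nuclear body protein, had log2 fold changes of -0.66 (SE 0.18) and -0.44 (SE 0.085). Of the 31-base words of XAF1 36.6% are shared with other genes, and DESeq2 did not call it (adjusted p = 0.0717, range over the alternatives 0.00507 to 0.0717).

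Compared per kilobase of canonical transcript, the untreated levels of the 45 genes spanned from 302 ± 11.7 CPM per kilobase for LGALS3BP to 0.615 ± 0.188 for IFI27 (SD, n = 3). LGALS3BP and IFITM3 (285 ± 15.3) headed the order and lay within their spread of each other. IFITM2 (64.3 ± 4.31) and UBE2L6 (60.4 ± 1.12) followed and also did not differ beyond their spread. IFI6 (47.5 ± 1.19), ISG15 (42.2 ± 2.0) and IFIT2 (35.6 ± 0.419) came next. OAS2 (0.941 ± 0.128), IFI44L (0.890 ± 0.0168) and XAF1 (0.721 ± 0.0668) stood just above IFI27 at the low end. Genes that fell were found from IFITM3 at rank 2 to XAF1 at rank 44. Tested genes that did not fall were found from LGALS3BP at rank 1 to ISG20 at rank 35, with PLSCR1 at rank 9, and none stood lower.

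Around the effectors stand genes that make, receive, transmit or damp the interferon signal, sensors of nucleic acid, and other genes that respond to interferon. A list of 50 such genes was written from general knowledge, with earlier results of these data known, and holds none of the 45. Of the 39 tested, 12 were lower and 11 were higher (30.8% and 28.2%), close to the shares over all genes given above. Among the 39 are 10 genes that respond to interferon gamma or NF-kB as well, 4 of them lower and 3 higher. The shares describe the list and are no independent test of it. Without Y-320 replicate 2, 7 genes of the whole list were higher. The median log2 fold change of the 39 was -0.01. The ligands other than IFNE were at or near the floor of detection. Of 8 interferon genes, 7 were not tested and 5 of these had at most 3 counts in every library. IFNB1 was covered by 3, 1 and 0 counts without Y-320 and 2, 6 and 2 counts with it, and IFNG had 0 in all 6, which allows up to 0.131 to 0.144 CPM by library for counting error alone. IFNE, the epithelial type I interferon, was tested and measured 1.36, 1.44 and 1.22 normalized CPM in untreated libraries and 1.09, 0.870 and 1.04 with Y-320 (log2 fold change -0.42, SE 0.22, adjusted p = 0.143).

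Of 9 receptor chains and receptor kinases, 4 were higher and 2 were lower, against 26.2% and 25.4% of all genes tested. IFNGR1, the ligand-binding chain for interferon gamma, rose from 38.7, 37.98 and 39.1 to 57.5, 54.9 and 57.4 normalized CPM (log2 fold change 0.55, SE 0.036, adjusted p = 6.02e-07). IL10RB, the chain that the lambda interferon receptor shares with others, fell (log2 fold change -0.30, SE 0.036, adjusted p = 5.96e-05). IFNLR1, its specific partner, was higher (log2 fold change 0.31, SE 0.095, adjusted p = 0.0192), a call lost without Y-320 replicate 2, untreated replicate 2 or untreated replicate 3 (adjusted p = 0.0659, 0.0554 and 0.0581) and under DESeq2 (adjusted p = 0.136). IFNAR2, the high-affinity chain for type I interferons, was lower (log2 fold change -0.19, SE 0.060, adjusted p = 0.0226), a call lost without Y-320 replicate 1 (adjusted p = 0.0842) or untreated replicate 2 (adjusted p = 0.0873) and under DESeq2 (adjusted p = 0.134). The receptor chains therefore did not move in a single direction.

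STAT2 and IRF9, which act together at the ISRE, did not pass the test. STAT2 measured 64.9, 66.9 and 68.2 in untreated libraries and 68.2, 67.6 and 68.6 with Y-320 (log2 fold change 0.03, SE 0.032, adjusted p = 0.440). IRF9 measured 10.2, 11.6 and 11.3 without Y-320 and 10.9, 10.1 and 9.84 with it (log2 fold change -0.10, SE 0.079, adjusted p = 0.328). Both overlapped between the groups. Among the other transcription factors, IRF1 had overlapping groups and a call at the edge of the threshold (log2 fold change 0.14, SE 0.051, adjusted p = 0.0415). The IRF1 call was lost without Y-320 replicate 2 or 3 (adjusted p = 0.151 and 0.120) and without untreated replicate 1 or 2 (adjusted p = 0.151 and 0.0822). DESeq2 and upper-quartile factors did not call IRF1 either (adjusted p = 0.0562 and 0.0954). IRF7, needed for amplified interferon production in leukocytes, was covered by 8, 8 and 3 counts without Y-320 and 1, 7 and 2 counts with it, and was not tested.

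Of 9 tested sensors of nucleic acid and enzymes linked to them, 4 were lower and 3 were higher. Over all genes tested these shares were 25.4% and 26.2%. RIGI, a receptor for viral RNA in the cytosol, fell from 37.6, 35.7 and 34.3 to 23.9, 24.6 and 25.6 normalized CPM (log2 fold change -0.54, SE 0.049, adjusted p = 7.24e-06). TLR3, the endosomal receptor for double-stranded RNA, was also lower (log2 fold change -0.35, SE 0.048, adjusted p = 1.43e-04), and so was EIF2AK2, the kinase PKR (log2 fold change -0.30, SE 0.037, adjusted p = 6.60e-05). CGAS, the sensor of cytosolic DNA, was higher (log2 fold change 0.27, SE 0.050, adjusted p = 0.00121). Of the negative regulators outside the 45 genes, PIAS1, a SUMO ligase, was lower (log2 fold change -0.49, SE 0.041, adjusted p = 3.59e-06), and SOCS1, which blocks receptor kinases, measured 0.544, 0.623 and 0.453 in untreated libraries and 1.09, 0.778 and 0.677 with Y-320 without passing the test (log2 fold change 0.65, SE 0.30, adjusted p = 0.0998).

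Genes that respond to interferon gamma or to NF-kB as well gave 4 lower and 3 higher of 10 tested. Over all genes tested 25.4% were lower and 26.2% were higher. The guanylate-binding proteins GBP1 and GBP4, which attack vacuoles around pathogens, fell with the effectors. GBP1 went from 9.24, 11.3 and 11.1 to 3.15, 3.25 and 3.47 normalized CPM (log2 fold change -1.68, SE 0.11, adjusted p = 7.18e-07). GBP4 went from 11.96, 13.3 and 12.2 to 5.996, 6.13 and 6.68 (log2 fold change -0.99, SE 0.083, adjusted p = 3.89e-06). The groups did not overlap for either gene. The chemokines CXCL10 and CXCL11, which attract T cells, moved the other way from a base close to the floor of detection. CXCL10 went from 6, 2 and 3 counts to 69, 118 and 116 counts (log2 fold change 4.70, SE 0.37, adjusted p = 2.52e-06). CXCL11 went from 4, 8 and 5 to 25, 27 and 34 counts (log2 fold change 2.27, SE 0.34, adjusted p = 2.42e-04).

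**Figure D4:**
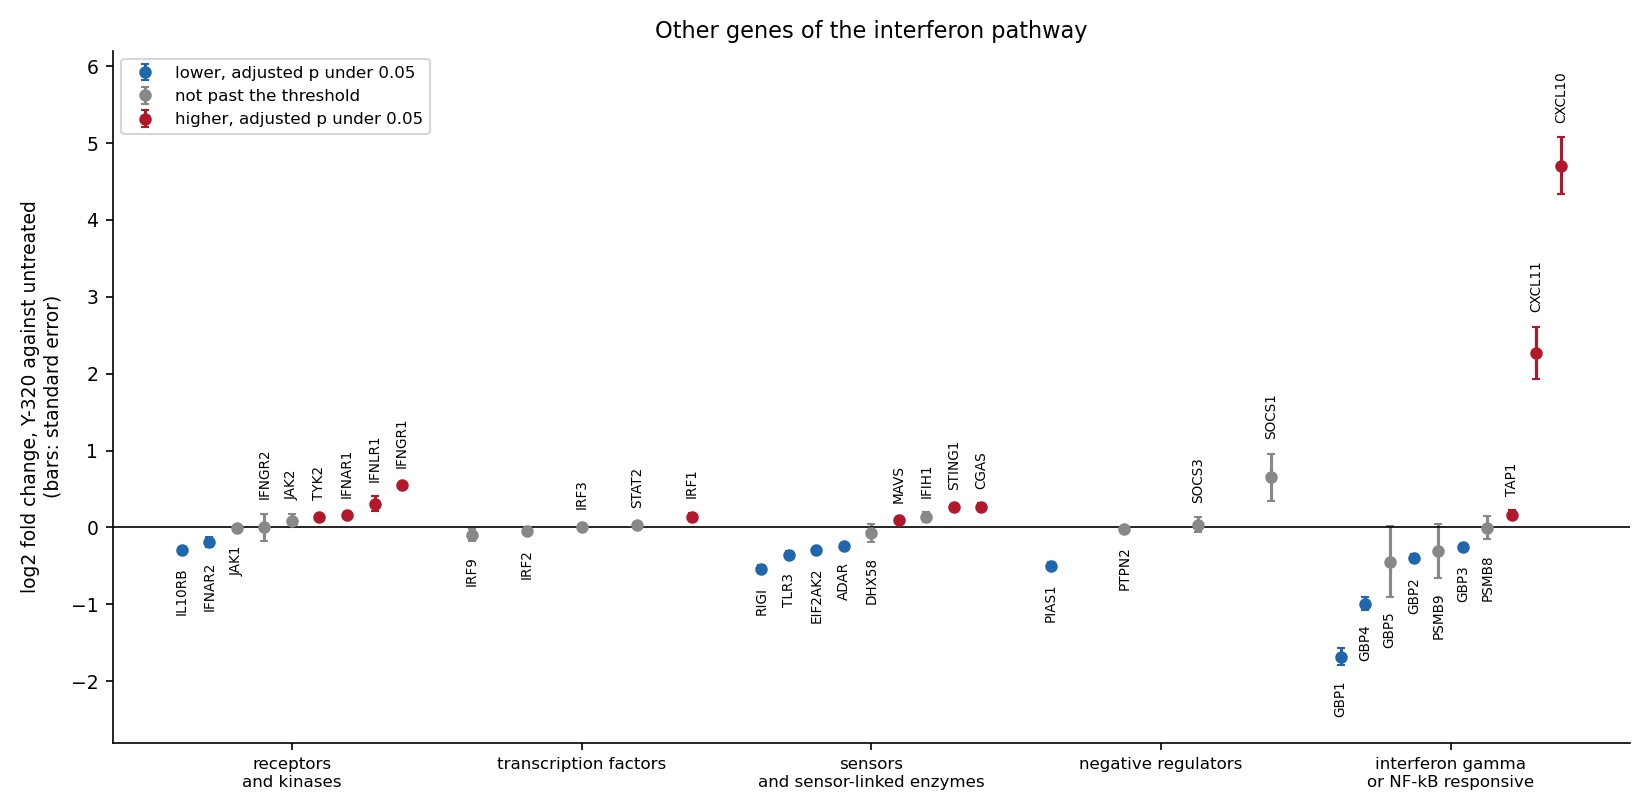
Log2 fold change, Y-320 against untreated, of tested interferon pathway genes outside the effector set, arranged by role along the horizontal axis, with bars for the standard error and colours for the edgeR call at an adjusted p under 0.05; the ligand IFNE is not drawn. CXCL10 (4.70) and CXCL11 (2.27) lie highest and GBP1 (-1.68) lowest, while STAT2 (0.03) and IRF9 (-0.10) lie near 0.

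The epithelial origin of the line was checked with 7 markers, all of which were detected in every library. Their summed level was 11304 to 11825 normalized CPM in untreated libraries and 6901 to 6973 with Y-320, with 6 markers lower and EPCAM higher. In the fibroblast list 3 of 4 genes were lower and the sum lay at 197 to 226 without Y-320 and at 110.0 to 124 with it. In the leukocyte list of 6 genes, CD3E was at or under 3 counts in every library, and the sum of 37.3 to 38.9 without Y-320 and 68.1 to 74.4 with it was mostly CD68, which was higher (log2 fold change 0.93, SE 0.045, adjusted p = 6.63e-08) and of whose 31-base words 81.03% are shared with another gene. For plasmacytoid dendritic cells, the main producers of type I interferon in blood, LILRA4 was at 0 and CLEC4C at no more than 3.27 estimated counts in every library, and the 3 genes summed to 4.08 to 5.39 without Y-320 and 4.03 to 6.13 with it. The endothelial list of 3 genes, with CDH5 lower and PECAM1 higher, summed to 17.5 to 18.9 without Y-320 and 13.8 to 17.9 with it. Beside these marker calls stand shares of 25.4% lower and 26.2% higher over all genes tested. Whether these epithelial, fibroblast and leukocyte differences bear on the values above was not tested.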

How the data were processed

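The authors deposited estimated counts per gene, not normalized, for each of the 6 libraries in 1 table. The submitters' processing notes name kallisto 0.46.1 and the builds GRCh38 and hg38. The Ensembl release, the step from transcripts to genes and the strand setting are not given in the sources used here. The paper's methods name several combined pipelines, which were not repeated.

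Estimated counts were rounded to whole numbers. Identifiers were matched to gene names, 35390 of 40295 with a match. Positions and canonical transcript lengths came from GENCODE 44 on hg38, and 31-base words shared with other genes were counted in its transcripts. With edgeR 4.0.16 in R 4.3.3, genes were filtered by filterByExpr (minimum count 10, minimum total 15), libraries were scaled by TMM, and the quasi-likelihood test was fitted over all genes without a block; p-values were adjusted by Benjamini-Hochberg, and 0.05 was the threshold. The test is two-sided, and SE is the absolute log2 fold change divided by the square root of the F statistic. DESeq2 1.42.0, limma-voom (limma 3.58.1), other scalings, other filters, unrounded counts, a replicate block, a threshold of 0.01 and fits without each library served as alternatives. Summing the IFITM rows, and USP18 with USP41, was added after the data were seen. The fit was tested on simulated data for this comparison, with 200 of 16580 genes changed. It called 85% of genes changed 2-fold and 98% of those changed 4-fold. Of its calls 8.04% were unchanged genes, a share above the threshold of 0.05. In the real data 8546 genes were called, so these rates describe the simulated setting and may not carry over. Tables came from pandas 2.3.3 and numpy 2.4.6 in Python 3.11.15, and plots from matplotlib 3.10.9.

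Replicate numbers from the labels did not pair the samples: deviations from the group means of same-numbered samples correlated at -0.018, 0.0075 and 0.001. For a single gene, an exact permutation test of 3 against 3 samples cannot go below 0.1, so none was used. The gene set and all lists were chosen with earlier results of these data known. Per-library values are given for the OAS, IFIT, IFI, IFITM and PARP genes, for genes that were not lower and for some others. All genes of the other groups are named with a log2 fold change. Of each pathway list up to 4 called genes with the largest absolute log2 fold change are named, and STAT2 and IRF9 always. Some genes of these lists are not reported here. IFNB1, IFNG, IFNE, IRF7 and SOCS1 were named after their values were seen.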

Additional observations from a re-analysis of the deposited data

How the results depend on the processing

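The calls on the effector genes changed little. Between 34 and 38 were lower under the 16 alternatives to the reported fit, and 2 or 3 were higher. The median log2 fold change lay between -0.69 and -0.76. Of the 36 lower calls, 33 were made under every alternative count model, scaling, filter and left-out library that tested them, and the exceptions were IFIT5, XAF1 and TRIM22 under DESeq2, with IFIT5 also lost without single libraries. Under the replicate block 36 were lower and 3 higher, and no call on an effector gene changed. The count of other interferon pathway genes called higher was the least stable, 7 at an adjusted p under 0.01 against 11 at 0.05. Without 1 library it lay between 7 (without Y-320 replicate 2) and 10. Of 976 single-gene values recomputed for 61 genes, 943 kept their call, 27 lost it, 6 gained one and 0 reversed. Another scaling moved the median of all genes by at most 0.029 on the log2 scale. Depth limits IFI27 and the interferon ligands other than IFNE, which had few counts in every library.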

Other observations

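Genes outside the effector set that hold the ISRE core in a promoter, with a mean of at least 1 CPM and a call by edgeR, are given by the 3 largest changes in each direction (mean ± SD, n = 3 per group). TENM2, a teneurin of cell contacts, went from 15.8 ± 0.489 to 1.48 ± 0.341 normalized CPM (log2 fold change -3.41, SE 0.13, adjusted p = 1.21e-08). POSTN, the matrix protein periostin, went from 2.66 ± 0.496 to 0.405 ± 0.0985 normalized CPM (log2 fold change -2.70, SE 0.27, adjusted p = 1.27e-05). RGS4, a regulator of G protein signalling, went from 6.14 ± 0.304 to 1.02 ± 0.201 normalized CPM (log2 fold change -2.59, SE 0.16, adjusted p = 4.72e-07). These 3 are not antiviral effectors, and their log2 fold changes were below that of OAS2. In the other direction CXCL10 was followed by C2CD4A, which went from 0.862 ± 0.164 to 2.60 ± 0.230 normalized CPM (log2 fold change 1.59, SE 0.21, adjusted p = 1.07e-04). BBC3, the pro-apoptotic protein PUMA, went from 6.43 ± 0.640 to 13.7 ± 0.461 normalized CPM (log2 fold change 1.09, SE 0.086, adjusted p = 2.56e-06). A match of the core in these promoters is a description of letters, and no relation to interferon signalling was tested.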
